A study of Mus musculus with 2 samples.

Results

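The genes described here exchanged transcript forms on retinoic acid differentiation of mouse embryonic stem (ES) cells while no promoter of theirs changed its share by as much. They number 67 of 6170 genes that could be compared, among 34126 genes with transcript rows. A form is 1 transcript model of the deposited table, and its share is its RPKM (reads per kilobase of model, scaled to the read total of the lane) divided by the sum over all forms of the gene. A gene could be compared when it had 2 or more forms that summed to 5 RPKM or more in each of the libraries. A member had a form whose share differed by at least 30 percentage points, in the same direction, in all 4 pairings of a differentiated with an undifferentiated lane. None of its promoters, meaning sets of models that begin with the same first exon, differed by 30 points or more between the library averages. The members were thus selected on these shares, which are described and not tested, and the gene sums come from the same contrast.

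The differentiated library came from E14 ES cells of strain 129P2/OlaHsd that were kept for 4.5 days without feeder cells in 10% serum and all-trans-retinoic acid at 0.1 µM. It holds a mixed population of cells. The undifferentiated library came from the same line, also at passage 29, grown on mitomycin-treated embryonic fibroblasts in 15% serum with leukaemia inhibitory factor. Each condition is 1 culture and 1 library, read on 2 lanes as 36-base single-end reads, so the lanes repeat the sequencing and not the biology. With no replicate culture, no p-value is given. The labels put remaining feeder cells under 0.25%, and dead cells at about 8% of the differentiated and 2% of the undifferentiated harvest.

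The sequencing lanes implied 33.0 and 32.0 reads for each RPKM in a 1 kb model in the differentiated library, and 37.8 and 36.1 in the undifferentiated library. All 7 ES cell markers of a fixed list were lower by 2-fold or more in the differentiated cells, and all 7 markers of extraembryonic endoderm were higher by as much. Of 7 fibroblast markers, 4 (Col1a1, Col1a2, Col3a1 and Dcn) were higher by 2-fold or more after differentiation, and Lum was under 1 RPKM in both. The other 2 lay between and were lower after differentiation. Thy1 was at 2.13 RPKM in the differentiated and 3.43 RPKM in the undifferentiated library, and Postn at 1.63 and 2.69 RPKM. The 7 markers summed to 225 RPKM in the differentiated library and 29.5 RPKM in the undifferentiated library. Col1a1 alone gave 133 RPKM of the differentiated sum and 12.3 RPKM of the undifferentiated sum. The part of such cells in the form shares was not tested. In a mixed population, a share that moves in every cell and a change in the mix of cells that use different forms cannot be told apart.

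One gene can give several messenger RNAs. Splicing joins different sets of exons, and cleavage and polyadenylation at different sites gives RNAs that end early or late, with or without the last coding exons. Some products carry an early stop codon and are classed as targets of nonsense-mediated decay, the pathway that degrades such RNAs, and others keep an intron or have no open reading frame. Splicing programmes set by RNA-binding proteins such as the MBNL and PTB families are known to differ between pluripotent and differentiated cells.

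Some forms could be compared at the level of exons, because they matched a current GENCODE M21 model by identifier. Ttll12, Tmed5, Tnc and Tacc1 are shown because a whole inner exon lies in one of the compared forms and not in the other. They were picked by hand, and other members, such as Eapp and Sars, also have such an exon. In Ttll12, Tmed5 and Tacc1 the compared forms are those that gained and lost most. In Tnc the form that lost most had no match. The form that gained most, Tnc-203, is set there beside Tnc-201, the form with the highest differentiated RPKM. The exon is in capitals, read 5′ to 3′ along the transcript, and the 12 lower-case bases on each side are the neighbouring exons of the same transcript. All lie on the minus strand of GRCm38, and each whole exon is coding.

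Tnc encodes tenascin-C, an extracellular matrix protein whose known variants differ in the number of fibronectin type III repeats. Exon 14 of 26, 273 bases at chr4:63984460-63984732, is in Tnc-203 and not in Tnc-201, and its length is a multiple of 3.
Tnc exon 14: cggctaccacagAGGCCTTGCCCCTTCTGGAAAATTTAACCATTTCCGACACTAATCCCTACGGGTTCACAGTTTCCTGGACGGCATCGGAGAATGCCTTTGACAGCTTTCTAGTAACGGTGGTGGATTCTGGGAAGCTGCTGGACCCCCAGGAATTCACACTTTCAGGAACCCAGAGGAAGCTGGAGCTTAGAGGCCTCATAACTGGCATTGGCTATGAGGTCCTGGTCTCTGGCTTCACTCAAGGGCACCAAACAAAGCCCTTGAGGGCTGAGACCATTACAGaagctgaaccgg

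Ttll12 encodes a member of the tubulin tyrosine ligase-like family. Exon 2 of 14, 170 bases at chr15:83591379-83591548, is in Ttll12-201 and not in Ttll12-203. Its length leaves a remainder of 2 after division by 3, and GENCODE classes Ttll12-203 as a target of nonsense-mediated decay.
Ttll12 exon 2: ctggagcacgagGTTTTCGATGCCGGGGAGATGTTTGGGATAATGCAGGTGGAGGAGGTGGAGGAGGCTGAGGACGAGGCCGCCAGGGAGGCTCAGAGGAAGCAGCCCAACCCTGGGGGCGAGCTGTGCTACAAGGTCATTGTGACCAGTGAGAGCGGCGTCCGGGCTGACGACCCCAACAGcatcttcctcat

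Tmed5 encodes a p24 family protein of transport between endoplasmic reticulum and Golgi. Exon 3 of 4, 184 bases at chr5:108125901-108126084, is in Tmed5-201 and not in Tmed5-202, which goes on to another last exon farther downstream.
Tmed5 exon 3: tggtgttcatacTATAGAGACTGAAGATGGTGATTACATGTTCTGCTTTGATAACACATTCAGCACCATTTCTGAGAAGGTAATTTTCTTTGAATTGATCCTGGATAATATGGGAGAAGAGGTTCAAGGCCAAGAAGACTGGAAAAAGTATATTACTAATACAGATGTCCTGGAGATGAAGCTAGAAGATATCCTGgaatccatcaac

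Tacc1 encodes a transforming acidic coiled-coil protein that works with the centrosome and microtubules. Exon 2 of 13, 116 bases at chr8:25200091-25200206, is in Tacc1-201 and not in Tacc1-202, and so is exon 3, of 1108 bases, which is not printed.
Tacc1 exon 2: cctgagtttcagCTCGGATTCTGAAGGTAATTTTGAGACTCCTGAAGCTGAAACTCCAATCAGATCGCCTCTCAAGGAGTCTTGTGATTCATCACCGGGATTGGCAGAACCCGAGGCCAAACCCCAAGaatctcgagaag

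**Figure D1:**
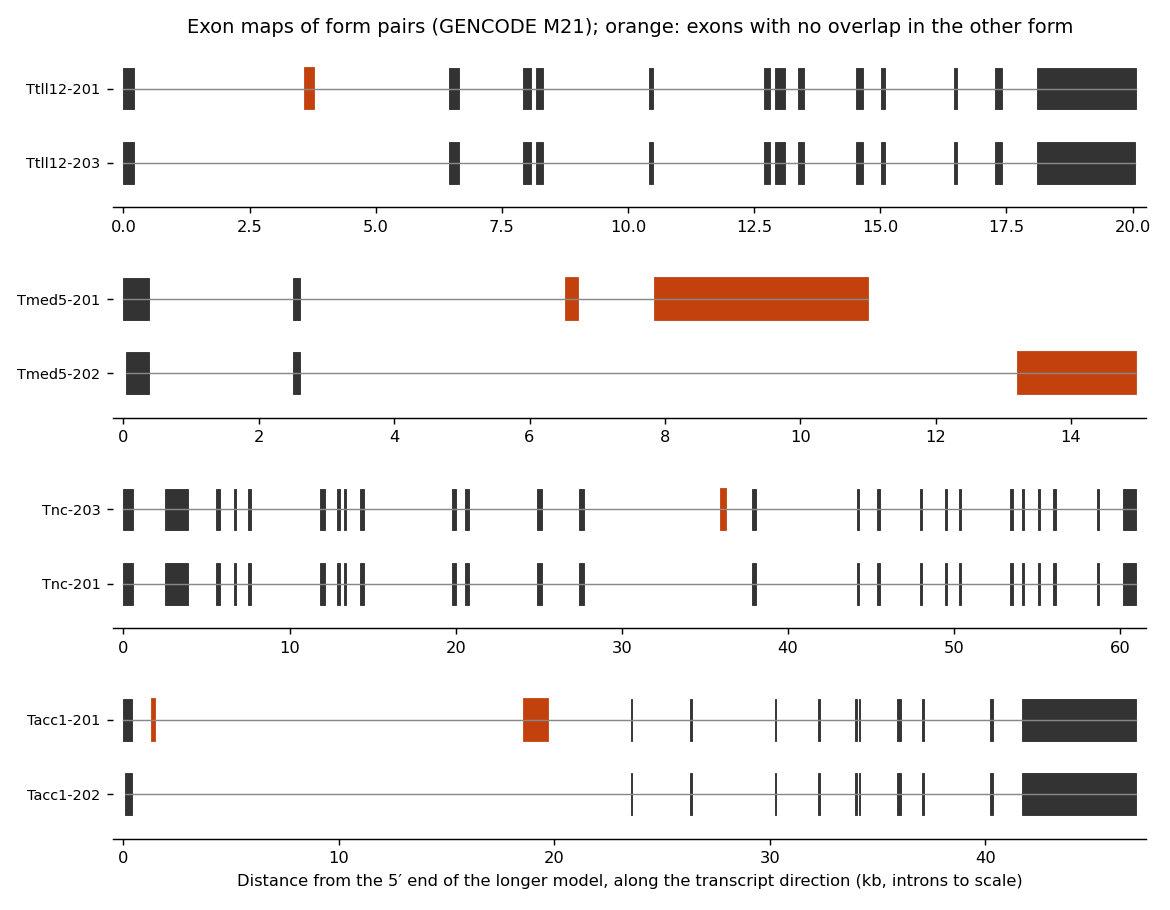
Exon models of the compared forms of Ttll12, Tmed5, Tnc and Tacc1 from GENCODE M21, drawn to scale along the transcript in kb from the 5′ end of the longer model, with exons as boxes and introns as lines. Orange boxes have no overlap with an exon of the other form: they are 2 inner exons in Tacc1-201, 1 in Ttll12-201 and in Tnc-203, and an inner exon together with other last exons in Tmed5.

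The shares of these forms moved as follows. Tnc-203, with the 273-base exon, held 40.4% and 37.5% in the differentiated lanes and 4.82% and 3.84% in the undifferentiated lanes. Tnc-201, without that exon, held 41.1% and 42.7% in the differentiated lanes and 35.6% and 40.9% in the undifferentiated lanes, so it kept its share. What gave way in Tnc were other forms, of which the one that lost most held 7.61% and 6.35% in the differentiated lanes and 22.3% and 18.2% in the undifferentiated lanes. The gene sum was 99.8 RPKM in the differentiated library and 6.18 RPKM in the undifferentiated library. Tnc-203 had 0.27 RPKM in the latter, so its share there rests on a low level.

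Ttll12-203, the form without exon 2, held 42.1% and 36.9% in the differentiated lanes and was listed at 0 in both undifferentiated lanes. The coding form Ttll12-201 held 57.9% and 63.1% in the differentiated lanes and 99.3% and 99.9% in the undifferentiated lanes. It remained the main form in both libraries, at a gene sum of 20.9 RPKM in the differentiated and 18.6 RPKM in the undifferentiated library.

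Tmed5-201 held 72.1% and 71.4% in the differentiated lanes and 22.7% and 22.4% in the undifferentiated lanes. Tmed5-202 held 14.5% and 20.2% in the differentiated lanes and 57.1% and 59.0% in the undifferentiated lanes. The main form changed, and the form gained ends 3966 bases upstream of the form lost. The gene sum averaged 17.8 RPKM in the differentiated and 19.1 RPKM in the undifferentiated library. By lane the sum was 13.3 and 22.3 RPKM in the differentiated library, and 19.7 and 18.6 RPKM in the undifferentiated library.

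Tacc1-202, without exons 2 and 3, held 59.1% and 44.9% in the differentiated lanes and was listed at 0 in both undifferentiated lanes. Tacc1-201 held 37.9% and 55.1% in the differentiated lanes and 94.9% and 100% in the undifferentiated lanes. The differentiated lanes differed over which of these forms came first, while both undifferentiated lanes held nearly all of the gene in Tacc1-201.

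Over all 67 genes, the smallest of the 4 lane pairings differed by 30.4 to 80.6 points, with a median of 39.3 points. The members are 1.09% of the 6170 genes compared, and 178 genes (2.88%) had a form past the limit when promoters were left out of account, of which 111 also had a promoter past it. Just inside the limit lay Utrn at 30.7 points and Tmem49 and Dnajc27 at 30.5 points each, and just outside it Tmem47 at 29.98, Camta1 at 29.6 and Ggps1 at 29.4 points. The limit thus cuts a continuous range of values. The form with the most RPKM was a different one in the differentiated and the undifferentiated library in 43 of the 67 genes, and the same one in 24. No such count was made over all genes compared, so nothing is read from these numbers.

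In many members one of the exchanged forms was listed at 0. The losing form, meaning the one whose share fell most, was listed at 0 in both differentiated lanes in 23 genes, and the gaining form was listed at 0 in both undifferentiated lanes in 19. Both held in 4 genes, Srrd, Epb4.1l4a, Arhgef2 and Ptpn14, and neither in 29. Forms at 0 were counted over the members alone and not over all genes compared, so they are not read as a trait of the members. A form listed at 0 may be a failed estimate of how reads divide among overlapping models, so no fold change is given for it.

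**Figure D2:**
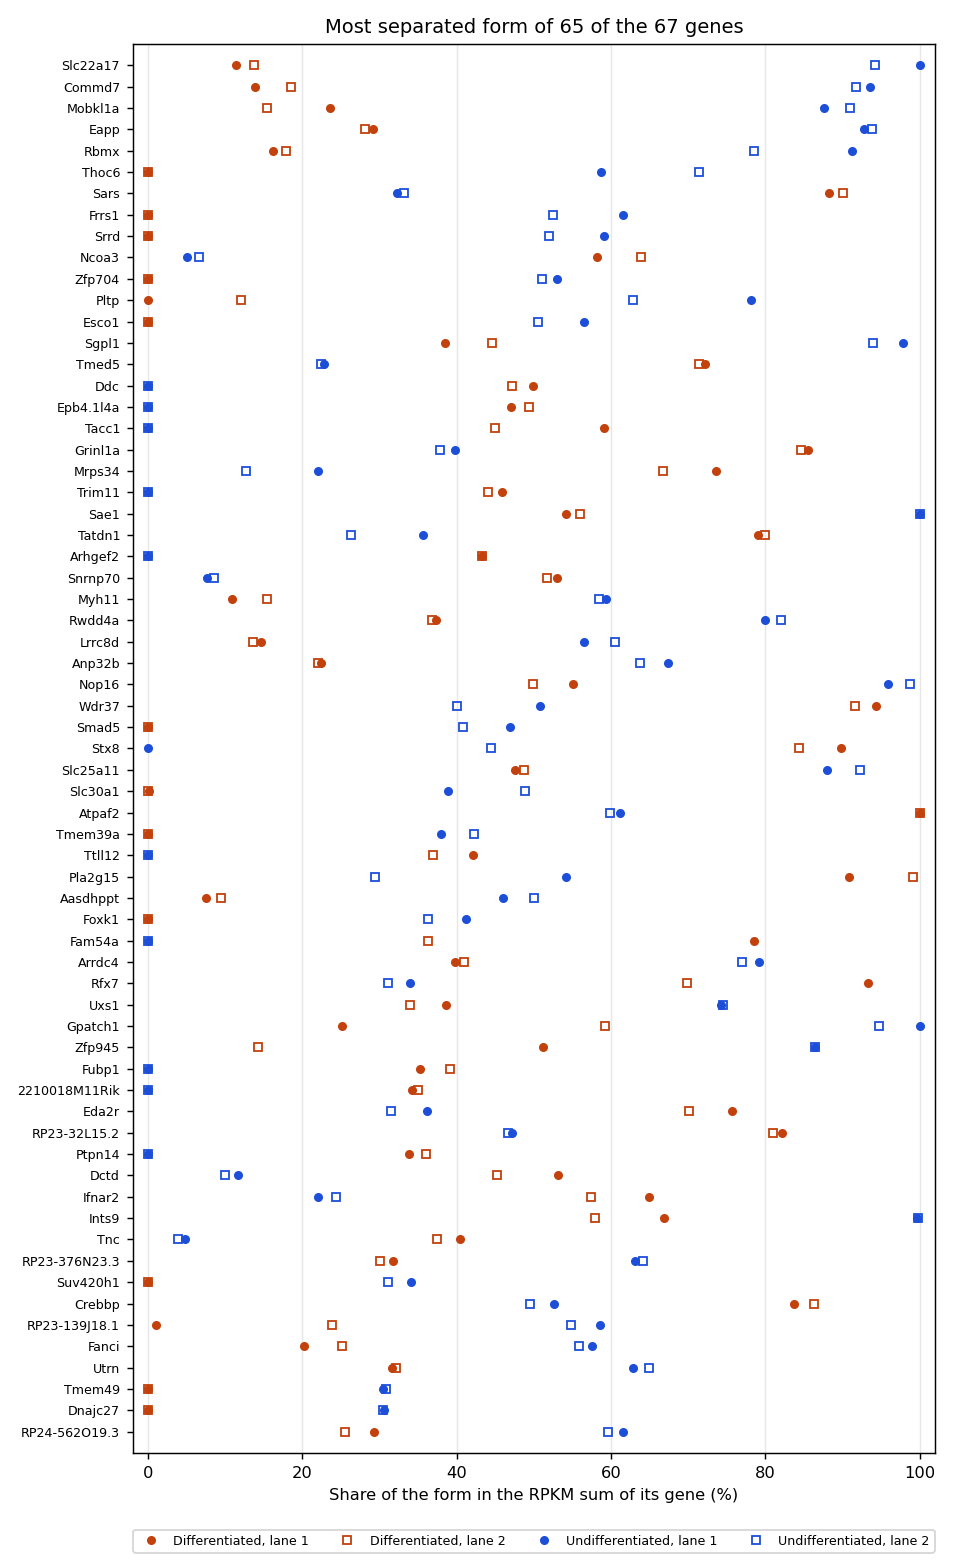
Share of the most separated form of 65 of the 67 genes (one gene per line) in the RPKM sum of its gene, in percent, with orange marks for the differentiated lanes and blue marks for the undifferentiated lanes (circles lane 1, squares lane 2). Orange and blue marks never overlap on a line, which the selection requires, and many lines end at 0% in all lanes of one library.

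Lanes of the same library mark how far shares move with no difference between cultures. The largest difference between both lanes of the differentiated library had a median of 5.15 points over the members and of 4.64 points over all genes compared. For the undifferentiated library these medians were 4.87 and 4.74 points. Of all genes compared, 9.11% had a form at least 30 points apart between the differentiated lanes and 8.91% between the undifferentiated lanes. Among members this was so for 4 genes in the differentiated library (Fam54a, Zfp945, Gpatch1 and RP23-139J18.1) and for 2 in the undifferentiated library (Stx8 and Rfx7). Stx8, which encodes a syntaxin of endosomal fusion, shows the extent: Stx8-204 held 89.8% and 84.3% in the differentiated lanes, against 0% and 44.5% in the undifferentiated lanes. The form that gained most in Fam54a, now Mtfr2, held 78.6% and 36.3% in the differentiated lanes and was listed at 0 in the undifferentiated lanes.

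**Figure D3:**
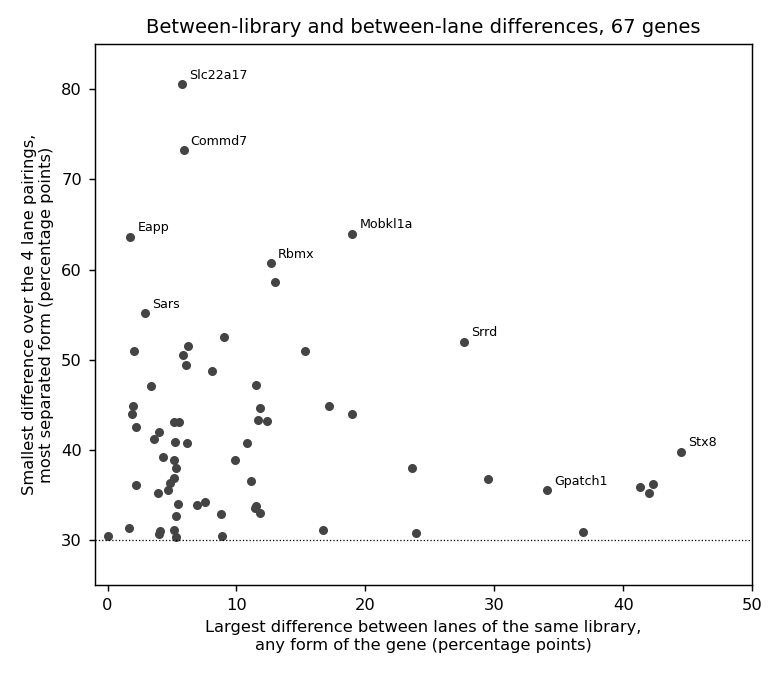
Each point is 1 of the 67 genes, with the largest difference in share between lanes of the same library on the x axis and the smallest difference over the 4 pairings of lanes between libraries on the y axis (both in percentage points), and the dotted line is the 30-point limit. Slc22a17 (80.6 points between libraries) and Commd7 (73.2) lie at the upper left, while Stx8 and Gpatch1 lie at the right, where lanes of one library differ by more than 30 points.

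Where the forms start and end was not fixed by the shares, apart from the limit on promoters. The gaining and the losing form belonged to the same first-exon group in 60 of the 67 members (89.6%), against 46.9% of such pairs in all genes compared, which follows from the limit on promoters. The other 7, Tmem39a, Fam54a, Ptpn14, Crebbp, RP23-139J18.1, Utrn and Tmem49, exchanged forms of different first exons by less than 30 points at any promoter, so for them a promoter difference below the limit goes along with the exchange. In 28 members the gene has 1 promoter group alone. In the 39 with several, the largest promoter difference between the library averages had a median of 8.94 points and reached 29.5 points.

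The 3′ ends differed in 59 members and were equal in 8. The distance between the ends ran from 3 to 219539 bases with a median of 3966, and it was over 1 kb in 43 genes. The gaining form ended upstream of the losing form in 35 members (52.2%) and downstream in 24 (35.8%). Over all genes compared, the form that gained most ended upstream in 40.5% and downstream in 39.4%. Over the genes with a promoter switch, it ended upstream in 46 and downstream in 52 of 111. These distances are between deposited models on mm9, and 36-base reads do not show that a given RNA spans a model from end to end.

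GENCODE M21 held 241 of the 347 forms of the members by identifier, and both exchanged forms in 32 genes. In all, 7 models were matched by more than 1 form, and among the 32 pairs this touches Dctd. A coding form gave way to another coding form in 17 of the 32 (53.1%), against 41.5% over the same pairs in all genes compared. A coding form gave way to a noncoding class, with nonsense-mediated decay targets counted there, in 9 (28.1%, against 23.9%), and the reverse was so in 4 (12.5%, against 22.9%). The coding part of the gaining form was shorter in 19, longer in 10 and equal in 3. A whole inner exon was found in the losing form alone in 6 pairs, in the gaining form alone in 4 and in neither in 22. In those 22 the forms differed by their ends, by parts of exons or by first and last exons. Coding length and inner exons were counted in these 32 pairs alone and not over all genes compared, so nothing is read from those counts. The forms that did not match are older models, many of them of the UCSC set, and include several of the widest exchanges.

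The members are ordered here by roles that were assigned by hand. Of them, 9 serve RNA processing and translation. The widest exchange among these was in Rbmx, which encodes the nuclear RNA-binding protein hnRNP G. Rbmx-205, which GENCODE classes as a decay target and which ends 2682 bases past the form that gained most, held 16.2% and 17.8% in the differentiated lanes, against 91.2% and 78.5% in the undifferentiated lanes. Its level was 3.09 and 3.35 RPKM in the differentiated lanes, against 88.8 and 31.7 RPKM in the undifferentiated lanes. The undifferentiated lanes thus differed by more than 2-fold in the level of this form, and agreed that it held most of the gene. No other form of Rbmx was above 5.29 RPKM in either library.

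Snrnp70 encodes the 70K protein of the U1 small nuclear ribonucleoprotein, which recognises the 5′ splice site. A form that stops 6705 bases before the full-length end held 53.0% and 51.6% in the differentiated lanes and 7.64% and 8.54% in the undifferentiated lanes. The full-length Snrnp70-201 held 23.5% and 25.6% in the differentiated lanes and 52.1% and 46.9% in the undifferentiated lanes. The early-ending form was at 72.1 RPKM in the differentiated and 13.2 RPKM in the undifferentiated library, while the gene sum was close, at 138 RPKM in the differentiated and 163 RPKM in the undifferentiated library.

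Thoc6 encodes a subunit of the THO complex, which couples transcription with messenger RNA export. Thoc6-201 was listed at 0 in both differentiated lanes and held 58.7% and 71.4% in the undifferentiated lanes. Its undifferentiated level was 17.1 and 8.63 RPKM in the lanes, and the gene sum there was 29.2 and 12.1 RPKM, so here too the lanes of that library were apart in level.

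Fubp1 encodes a single-stranded DNA- and RNA-binding protein that regulates Myc. A short form ending 11729 bases upstream of the form that lost most held 35.3% and 39.2% in the differentiated lanes and was listed at 0 in both undifferentiated lanes. Its level was 18.2 and 33.6 RPKM in the differentiated lanes. Gpatch1, Ints9 (a subunit of the Integrator complex) and Nop16 (a nucleolar protein of ribosome production) each lost share of their coding main form. Nop16-201 held 55.1% and 49.8% in the differentiated lanes and 95.9% and 98.8% in the undifferentiated lanes, and Nop16-202 took up the difference at 41.9% and 46.8% in the differentiated and 2.16% and 0.479% in the undifferentiated lanes. With shares weighted by model length, which gives shares of reads, Nop16-201 held 71.2% in the differentiated and 98.9% in the undifferentiated library, under the 30-point limit.

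Sars is the cytosolic seryl-tRNA synthetase. Sars-201, with 11 exons, held 88.3% and 90.1% in the differentiated lanes and 32.3% and 33.2% in the undifferentiated lanes. Its level was nearly equal, 81.7 RPKM in the differentiated and 83.4 RPKM in the undifferentiated library. The 5-exon Sars-204, which ends 4486 bases upstream, was listed at 0 in both differentiated lanes and had 79.5 and 84.1 RPKM in the undifferentiated lanes. Sars-203 was likewise listed at 0 in the differentiated library and had 69.5 RPKM in the undifferentiated library. The full-length form therefore gained share with no gain in level, and the gene sum was 91.6 RPKM in the differentiated and 255 RPKM in the undifferentiated library.

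Mrps34 encodes a protein of the small mitochondrial ribosomal subunit. Mrps34-203, classed as a decay target, held 73.6% and 66.7% in the differentiated lanes and 22.0% and 12.7% in the undifferentiated lanes. The coding Mrps34-201 had 2.74 RPKM in the differentiated library and 23.2 RPKM in the undifferentiated library, where it was the main form.

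**Figure D4:**
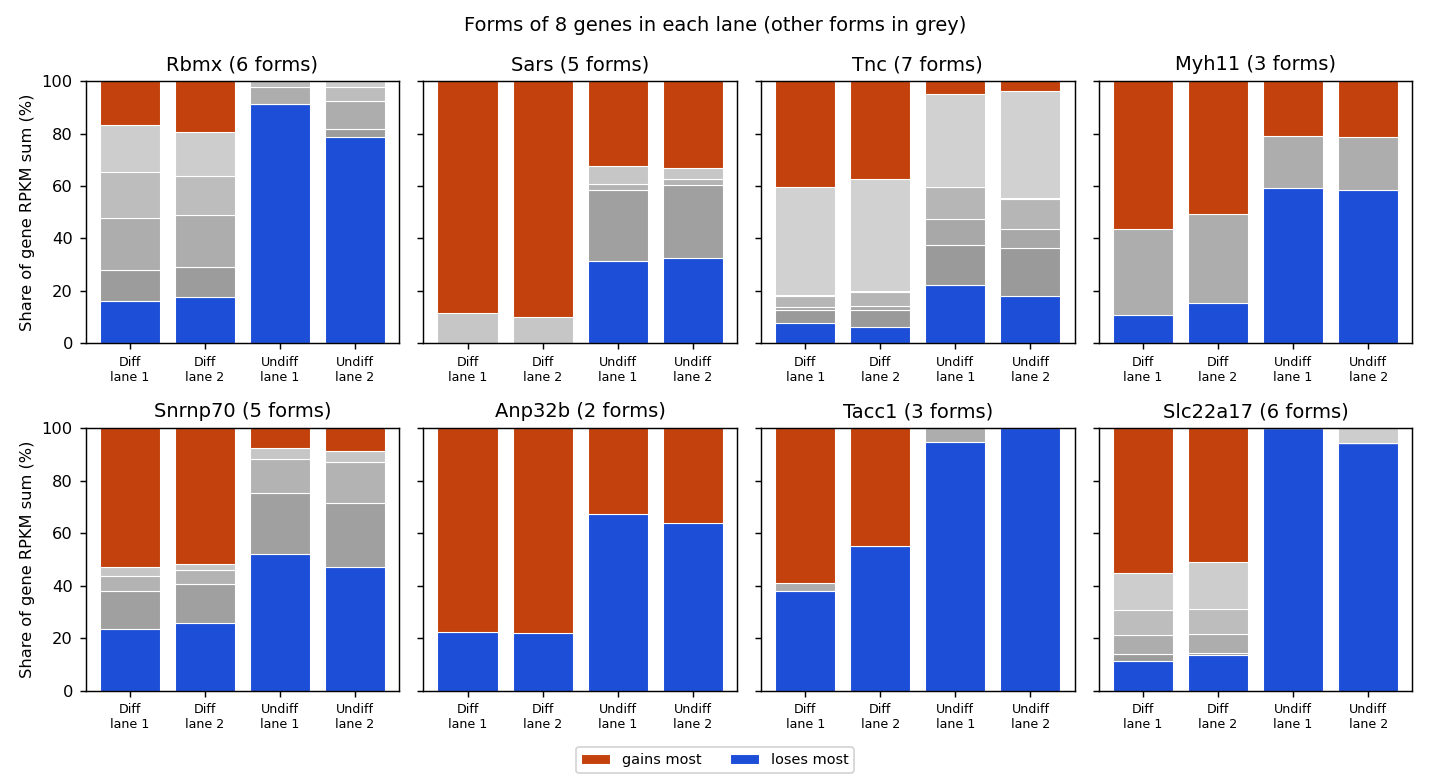
Forms of Rbmx, Sars, Tnc, Myh11, Snrnp70, Anp32b, Tacc1 and Slc22a17 as shares (percent) of the RPKM sum of the gene in each lane, differentiated lanes left of undifferentiated lanes, with the form that gained most in orange, the form that lost most in blue and all others in grey. The lanes of Sars and Anp32b look alike within each library, the differentiated lanes of Tacc1 differ by up to 17.2 points, and the blue form is absent from Sars in both differentiated lanes.

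Of genes for chromatin, transcription and DNA repair, 14 were members. Anp32b, an acidic histone chaperone, was the most expressed of all members and has 2 forms. Anp32b-201 held 77.5% and 78.0% in the differentiated lanes and 32.7% and 36.3% in the undifferentiated lanes. The other form, which lies within 225 bases at the start and 134 at the end, had 46.3 and 40.4 RPKM in the differentiated lanes and 240 and 217 RPKM in the undifferentiated lanes. As in Sars, the lower gene sum, 195 RPKM in the differentiated and 348 RPKM in the undifferentiated library, lay in the form that lost share.

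Ncoa3 encodes a coactivator of nuclear receptors, the class to which the retinoic acid receptors belong. Ncoa3-202, of 5757 bases, held 58.1% and 63.9% in the differentiated lanes and 5.10% and 6.60% in the undifferentiated lanes. Ncoa3-201, of 7531 bases, was listed at 0 in both differentiated lanes and held 38.4% in each undifferentiated lane. Both have 23 exons, and Ncoa3-202 ends 1772 bases upstream. The main undifferentiated form was neither of these and starts farther downstream. It held 21.7% and 25.4% in the differentiated lanes, against 49.0% and 47.4% in the undifferentiated lanes. The largest promoter difference of Ncoa3 was 24.7 points, under the limit. Crebbp, the acetyltransferase CBP, which also acts as a coactivator, had equal gene sums of 17.9 RPKM, and its most separated form held 83.8% and 86.4% in the differentiated lanes and 52.6% and 49.6% in the undifferentiated lanes.

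Eapp encodes an E2F-associated phosphoprotein and was the one member with more than 2 forms past the limit. Eapp-206 held 29.2% and 28.1% in the differentiated lanes and 92.8% and 93.8% in the undifferentiated lanes. Eapp-201 (34.8% and 36.6%) and Eapp-202 (31.5% and 31.6%) were present in the differentiated lanes and listed at 0 in the undifferentiated lanes. All 3 forms are coding, and in the differentiated library they stood at similar levels.

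Grinl1a, now Polr2m, encodes a protein that binds RNA polymerase II. Polr2m-203, classed as a decay target, held 85.6% and 84.7% in the differentiated lanes and 39.8% and 37.8% in the undifferentiated lanes. Its level was 87.7 RPKM in the differentiated and 11.3 RPKM in the undifferentiated library, while the coding Polr2m-201 was at 7.57 RPKM in the differentiated and 9.83 RPKM in the undifferentiated library. Nearly all of the higher gene sum thus lay in this one 720-base model. A row on chromosome 10 carries the same symbol, at no more than 0.24 RPKM in either library.

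Esco1, the cohesin acetyltransferase, lost its full-length Esco1-201, which was listed at 0 in both differentiated lanes and held 56.5% and 50.6% in the undifferentiated lanes. The form that gained most ends 11137 bases upstream and held 37.4% and 39.2% in the differentiated lanes, against 0% and 1.24% in the undifferentiated lanes. A further form, with a start farther downstream, was the main one in the differentiated lanes. It held 61.0% and 60.2% there, and 34.0% and 33.8% in the undifferentiated lanes. Smad5, a signal transducer of bone morphogenetic proteins, had a form with a retained intron, Smad5-206, listed at 0 in both differentiated lanes and at 47.0% and 40.8% in the undifferentiated lanes. The coding Smad5-201 held 82.9% and 82.4% in the differentiated lanes and 46.3% and 50.7% in the undifferentiated lanes. Zfp704, a zinc finger gene, had 97.5% and 97.4% in Zfp704-201 in the differentiated lanes and 46.9% and 49.0% in the undifferentiated lanes.

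Suv420h1 (a histone H4 lysine methyltransferase) and Foxk1 (a forkhead factor) each had a form that was listed at 0 in both differentiated lanes. Foxk1-201 made up the whole gene in the differentiated lanes, and 58.8% and 63.7% of it in the undifferentiated lanes. 2210018M11Rik, now Emsy, a BRCA2-binding protein, had an early-ending form at 34.3% and 35.0% in the differentiated lanes that was listed at 0 in the undifferentiated lanes. One form of Rfx7, of the RFX transcription factor family, held 93.4% and 69.9% in the differentiated lanes and 34.0% and 31.0% in the undifferentiated lanes. Fanci, of the Fanconi anaemia repair pathway, had 20.2% and 25.1% in Fanci-201 in the differentiated lanes and 57.5% and 55.9% in the undifferentiated lanes.

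The cytoskeleton, adhesion and matrix group has 9 members. Myh11 encodes the smooth muscle myosin heavy chain. A form that ends 13013 bases before the other models held 10.9% and 15.4% in the differentiated lanes and 59.3% and 58.4% in the undifferentiated lanes. The full-length models held 56.2% and 50.7%, and 32.8% and 33.9%, in the differentiated lanes. In the undifferentiated lanes they held 20.8% and 21.3%, and 19.8% and 20.3%. In level the early-ending form was alike, at 12.6 RPKM in the differentiated and 10.9 RPKM in the undifferentiated library, and the gain lay in the full-length models.

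Utrn, which encodes utrophin, the homologue of dystrophin, had a form with 31.6% and 32.2% in the differentiated lanes and 62.9% and 64.9% in the undifferentiated lanes. Utrn-201, with 74 exons, held 39.4% in each differentiated lane and 12.9% and 15.1% in the undifferentiated lanes. As in Myh11, the form that lost share was alike in level, 13.4 RPKM in the differentiated and 11.1 RPKM in the undifferentiated library. Ptpn14, a protein tyrosine phosphatase, had a form at 33.8% and 36.0% in the differentiated lanes that was listed at 0 in the undifferentiated lanes.

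Arhgef2 (a microtubule-associated guanine nucleotide exchange factor) and Epb4.1l4a (of the band 4.1 family) exchanged a form listed at 0 in one library for a form listed at 0 in the other. In Arhgef2 the gaining form held 43.3% and 43.2% in the differentiated lanes and the losing form 33.2% and 41.0% in the undifferentiated lanes. In Epb4.1l4a the gaining form held 47.0% and 49.4% in the differentiated lanes and the losing form 40.6% and 41.5% in the undifferentiated lanes.

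Membrane transport and trafficking genes gave 8 members. Slc22a17, the receptor for lipocalin 2, had the widest exchange of all. One form held 11.4% and 13.7% in the differentiated lanes, against 100% and 94.2% in the undifferentiated lanes. Another held 55.1% and 50.9% in the differentiated lanes and was listed at 0 in both undifferentiated lanes. All 6 forms of the gene were above 0 in both differentiated lanes, and in the undifferentiated lanes 1 and 2 of them were. At a gene sum of 14.8 RPKM in the differentiated and 7.17 RPKM in the undifferentiated library, the shares rest on a moderate number of reads.

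Pltp, the phospholipid transfer protein, had Pltp-202 at 0% and 12% in the differentiated lanes and at 78.2% and 62.9% in the undifferentiated lanes. Its undifferentiated levels were 22.0 and 5.89 RPKM, a wide difference between lanes of one library. Slc30a1, a zinc exporter, had Slc30a1-201 at 99.9% and 100% in the differentiated lanes and at 61.1% and 51.2% in the undifferentiated lanes. Weighted by model length it held 100% in the differentiated and 90.7% in the undifferentiated library, which is under the limit. Tmem49, now Vmp1, an endoplasmic reticulum protein of autophagy, lost Vmp1-207, listed at 0 in both differentiated lanes and at 30.5% and 30.8% in the undifferentiated lanes. Slc25a11, the mitochondrial oxoglutarate carrier, had Slc25a11-201 at 47.6% and 48.7% in the differentiated lanes and at 88.0% and 92.2% in the undifferentiated lanes. Weighted by length, its shares were 74.0% in the differentiated and 96.7% in the undifferentiated library, also under the limit.

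Lrrc8d, a subunit of volume-regulated anion channels, exchanged a coding form for a noncoding one. The coding Lrrc8d-202 held 14.6% and 13.6% in the differentiated lanes and 56.6% and 60.6% in the undifferentiated lanes. Lrrc8d-205 held 73.1% and 74.5% in the differentiated lanes and 32.9% and 29.6% in the undifferentiated lanes.

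Of receptors, signalling and protein modification genes, 8 were members. Commd7, of the COMM domain family, had Commd7-201 at 13.9% and 18.5% in the differentiated lanes and at 93.5% and 91.8% in the undifferentiated lanes. A form that ends 1898 bases upstream held 65.7% and 63.1% in the differentiated lanes and was listed at 0 in the undifferentiated lanes. Mobkl1a, now Mob1b, an activator of LATS kinases in the Hippo pathway, had Mob1b-202 at 23.6% and 15.4% in the differentiated lanes and at 87.6% and 91.0% in the undifferentiated lanes. Mob1b-201 was listed at 0 in the undifferentiated lanes, and its differentiated levels of 14.7 and 7 RPKM were 2-fold apart between lanes.

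Sae1, a subunit of the enzyme that activates SUMO, had its whole undifferentiated sum in Sae1-201, at 148 and 151 RPKM in the lanes. In the differentiated lanes Sae1-201 was at 93.9 and 95.5 RPKM, or 54.1% and 56%. The rest lay in a pair of forms that end up to 6819 bases downstream and were listed at 0 in the undifferentiated lanes. Ifnar2, a chain of the type I interferon receptor, gained the early-ending Ifnar2-203, with 64.9% and 57.4% in the differentiated lanes and 22.0% and 24.4% in the undifferentiated lanes. Eda2r, a receptor for ectodysplasin, gained a form with a retained intron, Eda2r-203, at 75.6% and 70.2% in the differentiated and 36.2% and 31.5% in the undifferentiated lanes.

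Arrdc4, of the arrestin domain family, and Trim11, a ubiquitin ligase, are also in the group. Arrdc4-202, which ends 4599 bases upstream of Arrdc4-201, held 39.8% and 40.9% in the differentiated lanes and 79.2% and 77.0% in the undifferentiated lanes. Trim11-201 held 45.8% and 44.0% in the differentiated lanes and was listed at 0 in the undifferentiated lanes, and it ends within 3 bases of the form that lost most.

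Metabolic enzymes and assembly factors gave 8 members. Ddc, the decarboxylase that makes dopamine and serotonin, had the 7-exon Ddc-209 at 49.9% and 47.2% in the differentiated lanes and listed at 0 in the undifferentiated lanes. The full-length Ddc-202 held 24.5% and 29.6% in the differentiated lanes and 50.9% and 52.2% in the undifferentiated lanes. Ddc-209 ends 32557 bases before Ddc-202, so much of the gene body is not in it.

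Sgpl1, sphingosine-1-phosphate lyase, moved the other way. The noncoding 492-base Sgpl1-206 held 38.4% and 44.6% in the differentiated lanes and 97.9% and 93.9% in the undifferentiated lanes. The full-length coding Sgpl1-202 held 32.3% and 32.6% in the differentiated lanes and was listed at 0 in the undifferentiated lanes. Frrs1, a ferric chelate reductase, had a form listed at 0 in the differentiated lanes and at 61.6% and 52.5% in the undifferentiated lanes. The form that gained most starts within 12 bases of that form. It held 45.1% and 48.1% in the differentiated lanes, against 0% and 5.35% in the undifferentiated lanes. A further form, with a later start, was the main one in the differentiated lanes at 54.8% and 51.9%, and held 37.1% and 41.5% in the undifferentiated lanes. Pla2g15, a lysosomal phospholipase, had Pla2g15-201 at 90.9% and 99.1% in the differentiated lanes and at 54.1% and 29.4% in the undifferentiated lanes.

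Uxs1 makes UDP-xylose, the sugar donor that starts glycosaminoglycan chains. Uxs1-207, of 854 bases, held 38.7% and 34.0% in the differentiated lanes and 74.2% and 74.5% in the undifferentiated lanes, and Uxs1-201, classed as a decay target, took up 46.1% and 50.1% in the differentiated and 18.3% and 16.0% in the undifferentiated lanes. Among the members with both exchanged forms matched to GENCODE, Mrps34, Ttll12, Grinl1a, Gpatch1 and Uxs1 are the 5 in which a coding form gave way to such a target. In Atpaf2, an assembly factor of ATP synthase, the reverse was seen: the coding Atpaf2-201 made up the whole differentiated sum and held 61.2% and 59.9% in the undifferentiated lanes, where the decay target Atpaf2-204 held 21.3% and 26.5%. Weighted by length, Atpaf2-201 held 100% in the differentiated and 76.5% in the undifferentiated library, under the limit.

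Aasdhppt, which attaches the phosphopantetheine arm to carrier proteins, had a form at 7.52% and 9.48% in the differentiated lanes and at 46.1% and 50% in the undifferentiated lanes. The form that gained most has the same start and end, and held 72.4% and 83.5% in the differentiated lanes and 42.1% and 37.3% in the undifferentiated lanes. Dctd, deoxycytidylate deaminase, gained a form at 53.1% and 45.2% in the differentiated and 11.7% and 10% in the undifferentiated lanes.

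The other 11 members have mixed or unassigned roles, and none had a gene sum 2-fold apart between libraries. Wdr37, Tatdn1 and Tmem39a each had a form at 0 in the differentiated lanes that held 35.9% to 52.1% in the undifferentiated lanes. That of Tmem39a held 14.1% of the undifferentiated sum when weighted by length, under the limit. One form of Rwdd4a held 37.3% and 36.9% in the differentiated lanes and 79.9% and 82.1% in the undifferentiated lanes. RP23-32L15.2 had a form at 82.2% and 81.0% in the differentiated and 47.1% and 46.6% in the undifferentiated lanes. Srrd had a form listed at 0 in the differentiated lanes and at 59.0% and 52.0% in the undifferentiated lanes. Dnajc27, a small GTPase with a J domain, had its whole differentiated sum in Dnajc27-201, which held 69.5% in each undifferentiated lane. RP23-376N23.3 and RP24-562O19.3, which GENCODE names Zfp965 and Zfp973 through their forms, may share reads. The losing form had 2.52 and 2.16 RPKM in the differentiated and 4.26 and 4.76 RPKM in the undifferentiated lanes in RP23-376N23.3. In RP24-562O19.3 it had 2.57 and 2.14 RPKM in the differentiated and 4.26 and 4.66 RPKM in the undifferentiated lanes. The values are nearly the same lane by lane, so these 2 rows may not be separate cases.

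Gene sums give the level of each gene whatever its form. They were compared as log2 of differentiated over undifferentiated RPKM with 1 added to both, and a gene was called higher or lower at 2-fold. Of the 67 members, 11 were higher (16.4%) and 9 lower (13.4%), beside 14.2% higher and 6.22% lower of all 6170 genes compared. The median was 0.16 over the members and 0.11 over all genes compared. In all 4 lane pairings, 8 members stayed higher and 5 stayed lower. The gene sums belong to the same contrast that chose the members, and nothing is read from these counts.

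The largest log2 ratios were 3.81 for Tnc, 2.64 for Ptpn14, 2.32 for Myh11 and 1.78 for Grinl1a. The lowest were -1.81 for Rbmx, -1.54 for Thoc6, -1.47 for Sars and -1.33 for Pltp. Rbmx had gene sums of 19.1 and 18.8 RPKM in the differentiated lanes and 97.4 and 40.4 RPKM in the undifferentiated lanes. Pltp had 6.61 and 7.12 RPKM in the differentiated lanes and 28.1 and 9.36 RPKM in the undifferentiated lanes. For Rbmx, Thoc6 and Pltp the lanes of the undifferentiated library were more than 2-fold apart, and so were the differentiated lanes for Mobkl1a, while Sars, Tnc, Myh11 and Grinl1a were close between lanes.

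**Figure D5:**
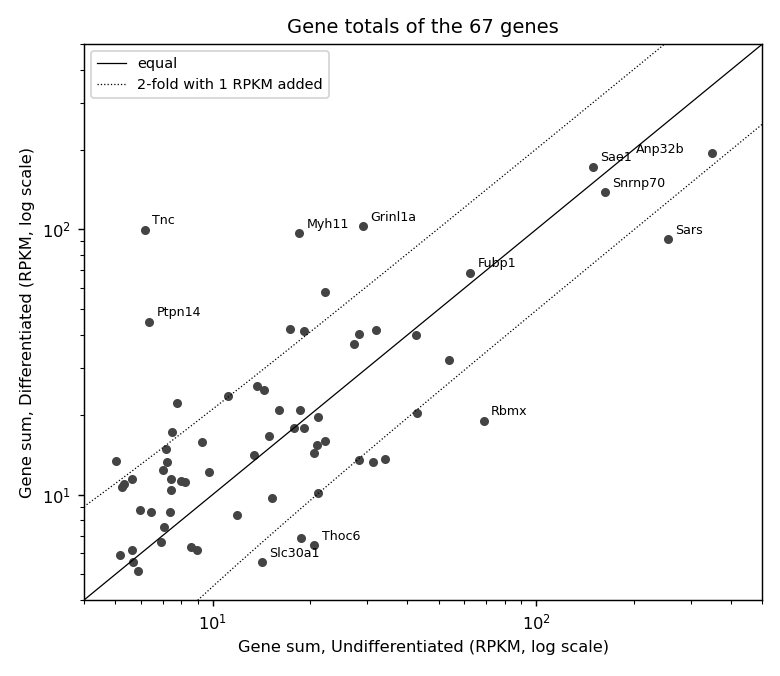
Gene sums in RPKM of the 67 genes in the differentiated library (y axis) against the undifferentiated library (x axis), both on log scales, with the line of equality and dotted lines at 2-fold with 1 RPKM added to both. Tnc, Ptpn14, Myh11 and Grinl1a lie above the upper dotted line, Rbmx, Thoc6 and Sars below the lower one, and 47 genes between the lines.

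Some lists of related genes were set beside the members. Of 50 genes known for alternative isoforms, 41 could be compared and none was a member, beside the 1.09% of all genes compared. Ktn1 (37.3 points) and Itga6 (39.9 points) had a form past the limit, each with a promoter switch, beside 2.88% of all genes compared. The list is short, so nothing is read from these counts. Of 33 splicing regulators, 32 reached 1 RPKM in either library, of which 9 were higher by 2-fold or more, 3 lower by as much and 20 between, with a median log2 ratio of 0.06. Of all 17906 genes at that floor, 19.1% were higher and 8.48% lower, with a median of 0.13.

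Among the splicing regulators, Mbnl2, a muscleblind factor, was at 45.7 RPKM in the differentiated and 4.92 RPKM in the undifferentiated library, and Mbnl1 was at 9.81 RPKM in the differentiated and 2.87 RPKM in the undifferentiated library. Of the PTB family, Ptbp1 was at 260 RPKM in the differentiated and 290 RPKM in the undifferentiated library. Ptbp2 was at 30.1 RPKM in the differentiated and 11.3 RPKM in the undifferentiated library, and Ptbp3 at 17.2 and 7.79 RPKM. Tia1, which promotes use of weak 5′ splice sites, was at 28.9 RPKM in the differentiated and 8.29 RPKM in the undifferentiated library. Srsf3, an SR protein, was at 237 RPKM in the differentiated and 514 RPKM in the undifferentiated library, and Srsf2 and Srsf7 were the other lower ones. Of the 23 splicing regulators that could be compared, none had a form past the limit, beside 2.88% of all genes compared. All 18 cleavage and polyadenylation factors lay within 2-fold, with a median of -0.02, and none of the 15 that could be compared had a form past the limit. Lists this short can hold none at that share, so nothing is read from either count. Whether any of these factors acts on the members was not tested.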

How the data were processed

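RNA-seq of 1 differentiated and 1 undifferentiated mouse ES cell library, 2 lanes each, was analysed from the authors' deposited tables of genes, promoters and transcripts. The deposited values are not named in the tables and were read as RPKM, since value times length mostly fell on whole multiples of 1 read (82.1% to 82.4% of low values within 5% of a read). Coordinates are on mm9 per the submitters' processing notes. The aligner is not given in the sources used here, nor is the counting program or the treatment of reads matching several models. Strand is not recorded by the mRNA kit of the labels' protocols, so genes that overlap on either strand, and near-identical copies, can share reads. Starts were raised by 1 so that the first base counts as 1.

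Shares, differences and gene sums were computed with Python 3.11.15 and pandas 2.3.3, and the selection code was run on simulated shares. The simulated lanes varied less than the real ones, so that run checked the code alone. Models were matched to GENCODE M21 (GRCm38) by identifier, with no conversion of coordinates, and model ends could differ there. With 1 library per group no test was run. The members and the gene lists were chosen with earlier results of these data known. The rule for named genes took the 20 widest exchanges, listed isoform genes, the 8 most expressed members and the 3 nearest the limit. It gave 29 genes. Other members, the genes just outside the limit and the non-members were named after their values were seen, and roles were assigned by hand. The values of 2 members are not reported here by name, though all counts include them.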

Additional observations from a re-analysis of the deposited data

How the results depend on the processing

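The number of members depends on the limits. It was 67 as reported, 197 at a limit of 20 points, 32 at 40 points, 116 at a floor of 2 RPKM, 34 at 10 RPKM and 339 with no floor. It was 139 when the averages alone were used, 178 with no limit on promoters, 520 with lane 1 alone and 529 with lane 2 alone. Chosen after seeing the data, leaving out genes with an exchanged form at 0 in both lanes of a library left 29, leaving out genes with lanes 30 points apart left 61, a promoter limit of 20 points left 59, and leaving out symbols on more than 1 chromosome left 66. Promoter limits in any lane pairing left 63. The median log2 ratio of gene sums was 0.16 as reported, 0.19 with 0.1 RPKM added, 0.13 with 5 RPKM added and 0.039 after centring on all genes. The start was shared in 20 members exactly and in 43 within 50 bases. From the list of isoform genes, 0 were members as reported, 1 at 20 points and 2 with no limit on promoters. No paired analysis was possible because each group has 1 library. Depth limits the shares of genes near 5 RPKM, and RPKM shares give short models more weight than reads do.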

Other observations

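Shares can also be taken of reads, with each RPKM multiplied by the length of its GENCODE model. This could be done for 2883 of the genes compared, those with a length for every form. Among them 19 were members by RPKM shares and 16 by read shares, and 13 were members by both. Atpaf2, Nop16, RP23-139J18.1, Slc25a11, Slc30a1 and Tmem39a were lost, and Taf10, Tmem132c and Ube2j1 were gained.

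The weighting moved single forms. The 492-base Sgpl1-206 held 41.7% of RPKM in the differentiated library and 96.0% in the undifferentiated library, and by read shares 8.55% in the differentiated and 90.3% in the undifferentiated library. The 2658-base Eapp-206 held 28.6% of RPKM in the differentiated and 93.3% in the undifferentiated library, and by read shares 53.6% in the differentiated and 90.3% in the undifferentiated library. The 799-base Ddc-209 held 48.5% of RPKM and 32.4% of reads in the differentiated library, and was listed at 0 in the undifferentiated library.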
